A study of Rattus norvegicus with 5 samples.

Results

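Cadherins and protocadherins are adhesion proteins of the cell surface, and their genes were followed here through maps of DNA enriched by an antibody against N6-methyladenine (6mA). The members are the gene symbols that begin with Cdh or Pcdh, then optional lower-case letters, then a number, and that at least 1 of 9 deposited region lists names. The rule found 60 members among 23553 gene names in all lists. They comprise 25 cadherins, 3 of them cadherin-related (Cdhr) genes, and 35 protocadherins, of which 26 belong to the clustered alpha, beta and gamma families. RefSeq (assembly GRCr8) has 80 protein-coding symbols of this pattern, and 58 of these were named in at least 1 list. Among the 22 that no list named, 14 are under 10 kb long and 13 are beta protocadherins, but the 430 kb gene Pcdh7 is also among them. Pcdhgb4 and Pcdhgb5 are members without a RefSeq entry by symbol.

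Rat DNA was immunoprecipitated with the 6mA antibody and sequenced, with 1 library each from NSCs (the SCR022 line of adult hippocampal neural stem cells), Neurons and Astrocytes. Apart from the adult origin of the NSC line, the labels give no genotype, treatment, age or strain for any of them, and no repeat of a cell type. Input DNA, taken before the antibody step, was sequenced for NSCs and Neurons. The Astrocyte peak list was called against an astrocyte input that is not a sample here and was not used. The immunoprecipitated libraries held 15.8 to 16.1 M (mega) reads, of which 13.8 to 13.9 M mapped uniquely, and the inputs held 27.9 M and 22.3 M. DNA libraries hold no expression of marker genes, so the cell types stand as labelled. With 1 library per cell type there is no spread between replicates, so no p-value was computed, and no count below shows a difference between cell types beyond these libraries. Values for the cell types are given in the order NSCs, Neurons, Astrocytes.

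Classical cadherins bind the same cadherin on the neighbouring cell in the presence of calcium, and their tails are tied to the actin skeleton by beta-, alpha- and p120-catenins. Cdh2 (N-cadherin) holds neural progenitors together at their apical junctions, and type II cadherins mark groups of neurons and their synapses. Protocadherins lack the catenin-binding tail. The non-clustered ones act in sorting and axon growth, and the clustered ones are expressed in different combinations in single neurons, which serves self-recognition. N6-methyladenine is an adenine mark well known in bacteria, and its amount in mammalian DNA is debated.

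Nearly every long cadherin gene held antibody peaks in all cell types, as most long genes did. Peaks named 52 of the 80 RefSeq members in NSCs (65%, exact 95% interval 53.5 to 75.3), 48 in Neurons (60%, 48.4 to 70.8) and 52 in Astrocytes (65%, 53.5 to 75.3). Over all 23154 protein-coding genes the shares were 39.3% in NSCs, 42.3% in Neurons and 39.5% in Astrocytes. Among the 28 RefSeq members of at least 100 kb, peaks named 26 (92.9%, 76.5 to 99.1), 27 (96.4%, 81.7 to 99.9) and 27 (96.4%, 81.7 to 99.9). The shares over all 2559 genes of that length were 87%, 87.5% and 86.9%, and each lay inside the members' interval. Without the clustered genes, several of which share their peaks, it was 18, 19 and 19 of 20. Intervals are by the Clopper-Pearson method. They treat genes or peaks as independent and hold counting error alone.

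In all, 305 of 121816 NSC peaks, 356 of 137579 Neuron peaks and 290 of 116091 Astrocyte peaks named a member. A few very long genes held most of them: Cdh13, Pcdh9, Pcdh15, Cdh12 and Cdh18 together had 55.4%, 53.7% and 52.4% of the member peaks. The median fold of a member peak over its input, in the authors' units, was 12.2, 12.4 and 12.5, against 12.3, 12.1 and 12.4 for other peaks that name a gene. Member peaks were therefore of ordinary height within each list. Folds come from separate lists and are set side by side without comparison.

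**Figure D1:**
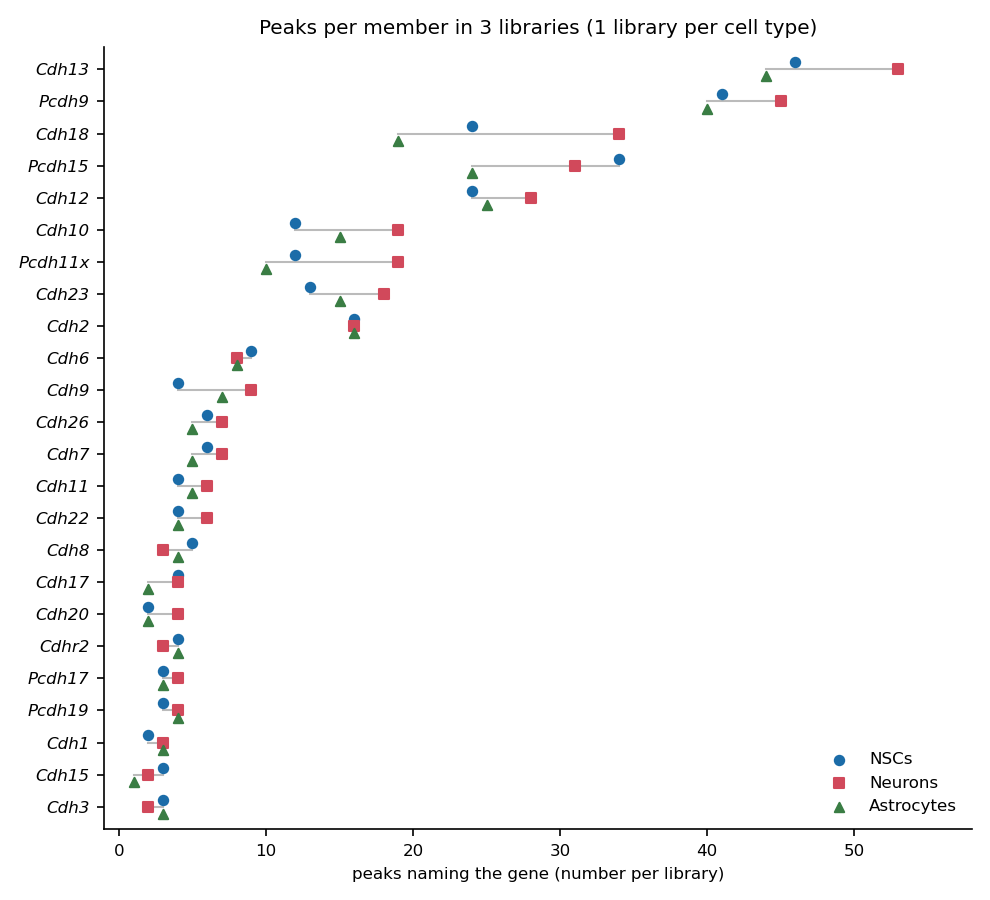
Number of peaks naming each of the 24 non-clustered members with the most peaks, on the horizontal axis, with 1 symbol per library and a grey line from the lowest to the highest. Cdh13 has 46, 53 and 44 peaks, while Cdh2 has 16 in each library.

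For several members the stretch over which the files name the gene is far shorter than the RefSeq gene. The files name Pcdh15 over 362 kb of a gene of 1499 kb in RefSeq (24.1%), Cdh13 over 364 of 1038 kb (35.1%), Cdh12 over 518 of 1234 kb (42%), Cdh18 over 49.9% of 1002 kb, Cdh8 over 123 of 407 kb (30.1%) and Cdh20 over 55.2 of 331 kb (16.7%). Cdh8 and Cdh20 have 24 and 12 regions over the 9 lists, but their peaks form only 10 and 6 separate places. How much of these 2 genes the files cover is therefore less sure. Cdh2 (99%), Cdh10 (99.2%), Cdh23 (104%), Pcdh17 (96.9%) and Pcdh9 (80%) are named over nearly the whole gene. Among 17 non-clustered members of at least 100 kb with at least 10 regions over the 9 lists, 7 (41.2%) were named over less than 50% of their RefSeq length, against 354 of 2006 other such genes (17.6%). Most peaks beyond such edges had no gene name. For the 8 non-clustered members named over less than 50% of their length, the 200 kb on either side held 124, 155 and 108 peaks in all, of which 8.87%, 9.03% and 8.33% carried a name, against 37.8%, 38.6% and 38.8% of all peaks. The sides differed: below the Cdh13 stretch none of 18, 20 and 14 peaks was named, while above it 4 of 6, 5 of 9 and 3 of 4 were. Whether the unnamed peaks lie in the genes cannot be told, since no source used here gives the build or gene models of the files.

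Peaks per 100 kb therefore depend on the length used. Among genes of at least 100 kb, by RefSeq length, the 28 of the pattern had medians of 2.61, 3.38 and 1.84 peaks per 100 kb. Other genes of that length had 3.04, 3.66 and 2.99. By the stretch the files name, a length chosen after seeing the data, the 17 members held 5.1, 6.79 and 5.47 and the 2006 other genes 5.08, 5.83 and 5. For genes of at least 100 kb, the members' median was thus below that of other genes by RefSeq length. By the named stretch it was above in Neurons and Astrocytes and almost equal in NSCs. The stretch ends at listed regions, so a density over it is raised by construction in both sets. The gene sets differ, however. The 28 include clustered genes, several of which share their peaks, while the 17 leave these out and need at least 10 regions over the 9 lists. The change of direction therefore cannot be credited to the length alone. Over genes of at least 20 kb, by RefSeq length, the 49 genes of the pattern had medians of 2.87, 3.39 and 2.28 and other genes 2.64, 3.13 and 2.66. No direction of the members against other genes therefore held over these choices. Cdh13, at 4.43, 5.11 and 4.24 peaks per 100 kb of RefSeq length, rises to 12.6, 14.6 and 12.1 by its named stretch, and Pcdh15 goes from 2.27, 2.07 and 1.6 to 9.4, 8.57 and 6.63. Among the 10 densest members of at least 20 kb by RefSeq length, 5 recurred in all 3 libraries. They were Cdh26 (11.4, 13.3 and 9.49), Cdhr2 (11.2, 8.4 and 11.2), Cdh2 (7.47 in each), Cdh6 (5.97, 5.31 and 5.31) and Cdh10 (5.4, 8.54 and 6.75).

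**Figure D2:**
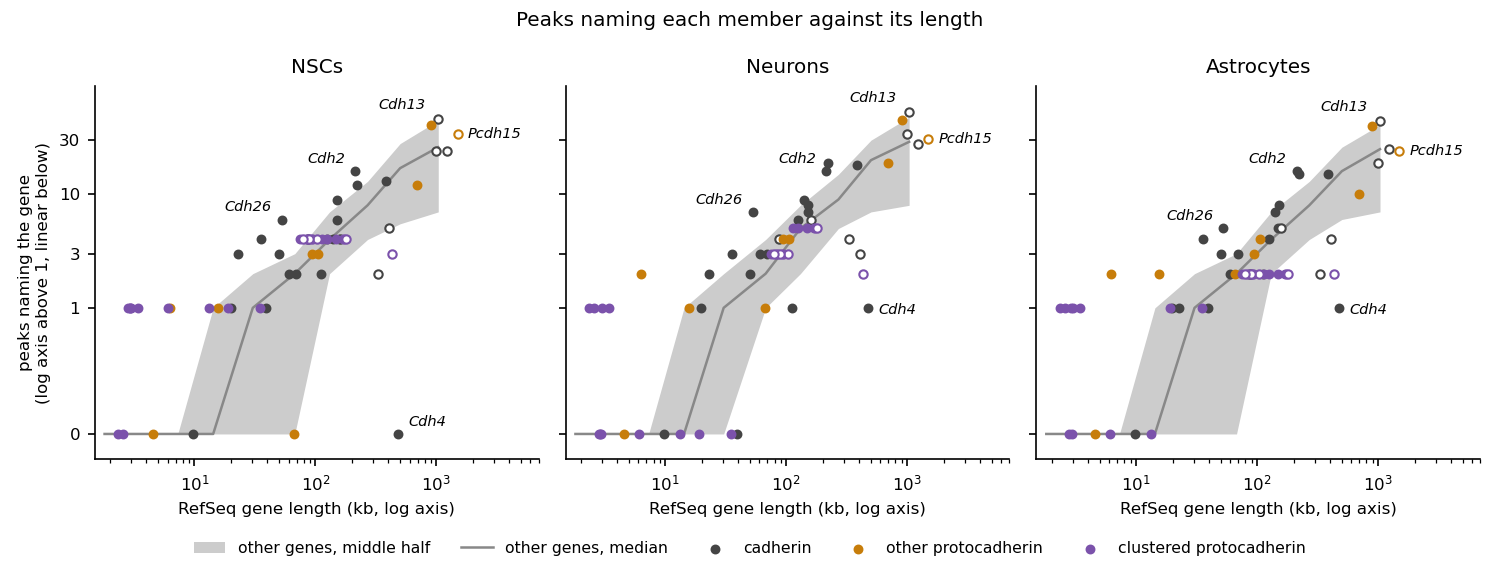
Peaks naming each member (vertical axis, logarithmic above 1) against its RefSeq length in kb (logarithmic axis), 1 panel per library. The grey line and band give the median and the quartiles of other protein-coding genes by length bin, and open circles mark members with at least 10 regions that the files name over less than 50% of their RefSeq length. Cdh2 and Cdh26 lie above the band in each panel, and Cdh4 lies below it.

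All 5 classical type I cadherins were members, and Cdh2 had the most peaks among them. Its largest folds, 109, 175 and 154, were also the largest of any member in each library. They lay in 2 neighbouring intronic loci on chromosome 18. At 8321346 to 8321961 the folds were 109, 97.7 and 149, and at 8322159 to 8323008 they were 47.5, 175 and 154. The 16 peaks per library merged into 26 loci, of which 10 held a peak in all 3 libraries (38.5%, 20.2 to 59.4). Cdh1 (E-cadherin, the epithelial cadherin) had 2, 3 and 3 peaks with folds of at most 12, 9.02 and 11.2, and none of its 6 loci was found in all 3 libraries. Cdh3 (P-cadherin) had 3, 2 and 3 peaks with largest folds of 44.4, 49.2 and 46.3, and Cdh15 (M-cadherin of muscle) had 3, 2 and 1. Cdh4 (R-cadherin), 478 kb in RefSeq, had 0, 1 and 1 peaks, with folds of 9.2 in Neurons and 7.32 in Astrocytes. The files name Cdh4 over 32.9 kb, by 6 regions in all. A stretch between so few regions is short by construction and does not tell how much of the gene the files cover. Whether unnamed peaks lie in the rest of the gene cannot be told.

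Type II cadherins, all 13 of them members, carried 97, 125 and 97 peaks. Cdh12 had 24, 28 and 25, and Cdh18 had 24, 34 and 19. Cdh10 had 12, 19 and 15, with largest folds of 47.4, 41.4 and 57.3, and Cdh22 had 4, 6 and 4, with 44.5, 36.8 and 41.6. Cdh9, which acts in the specificity of hippocampal synapses, had 4, 9 and 7. Cdh6 had 9, 8 and 8 peaks, with largest folds of 18.8, 44.9 and 54.6. Neurons had the most peaks for Cdh9, Cdh10, Cdh12 and Cdh18, but Cdh6 and Cdh8 (5, 3 and 4) had their most in NSCs. Cdh5 (VE-cadherin of blood vessels) had 1, 0 and 1 peaks, and Cdh24 had none in any peak list, though comparison lists named it.

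Outside the classical types, Cdh13, Cdh17, Cdh23 and Cdh26 held 69, 82 and 66 peaks. Cdh13 (T-cadherin) has a lipid anchor in place of a tail, and its largest folds were 46.4, 76.6 and 73.3, each at a different position of chromosome 19. Cdh17, the liver-intestine cadherin, had only 4, 4 and 2 peaks, but 1 of them, on chromosome 5 from 25431822 to 25432851, reached folds of 107, 105 and 84.3. The authors' score at that locus was printed as 3100 in each list, the largest for a member peak. The score is 10 times the negative log10 of the peak caller's p, and the lowest in any list is 50. Whether 3100 is a set upper value is not stated, so equal scores at unlike folds are not read as equal strength. Cdh23 is paired with Pcdh15 in the tip links of hair cells. Its 13, 18 and 15 peaks reached folds of 51.1, 77.8 and 72.7 at 1 locus near position 29975178 of chromosome 20. Pcdh15 had 34, 31 and 24 peaks and largest folds of 88.4, 67.4 and 57, all at 15178182 to 15178970 of the same chromosome. Both tip-link genes thus had their tallest peak at 1 intronic locus found in all 3 libraries.

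**Figure D3:**
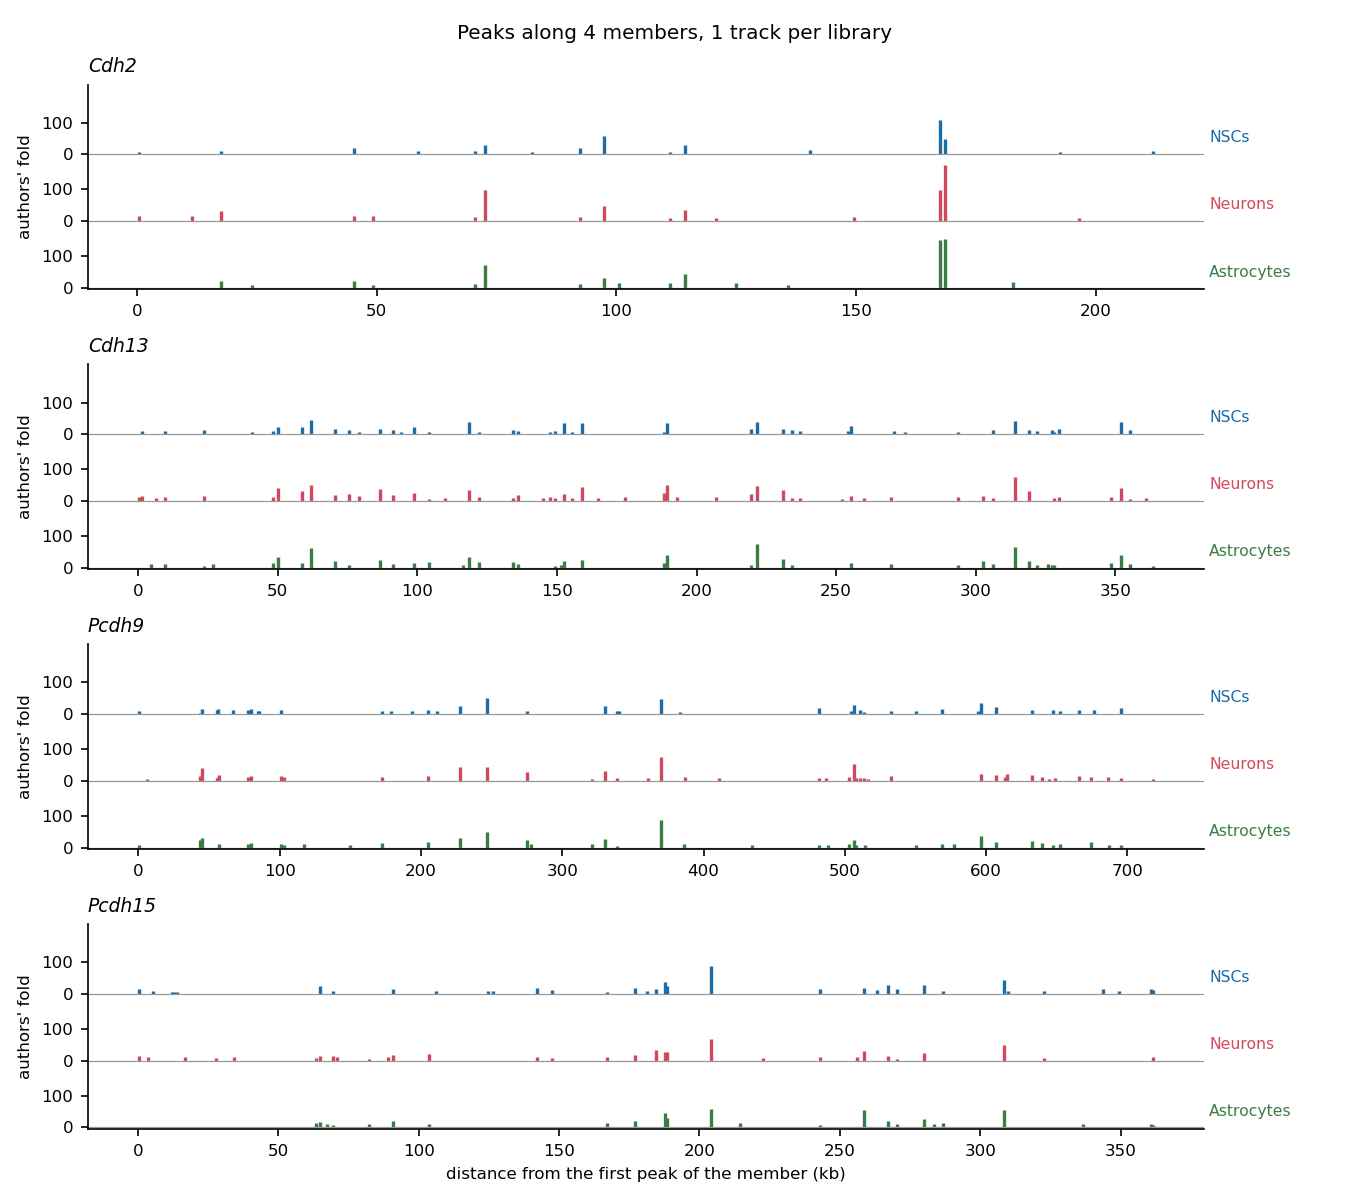
Peaks along Cdh2, Cdh13, Pcdh9 and Pcdh15 by distance in kb from the member's first peak, with 1 track per library and bar heights giving the authors' fold over input. The pair of tall Cdh2 bars and the tallest Pcdh15 bar stand at the same place in all 3 tracks, while many short bars stand in 1 track only.

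Among the non-clustered protocadherins, Pcdh9 had 41, 45 and 40 peaks, with largest folds of 50.4, 75.7 and 86.5, the Neuron and Astrocyte ones at 1 place of chromosome 15 (77386411 to 77387202). Pcdh11x, its X-linked relative of the delta-1 group, had 12, 19 and 10 peaks, and its largest folds of 57.7, 47.1 and 68.7 shared 1 position near 92680154 of chromosome X. The delta-2 members had few peaks. Pcdh17 had 3, 4 and 3, with folds of at most 17.6, 11.1 and 12.7, and Pcdh19, whose mutations cause an epilepsy in girls, had 3, 4 and 4, with folds of at most 13.8, 16.9 and 20.4. Pcdh10 had 0, 1 and 2 peaks on chromosome 2. The files name it over 2.83 of 66.2 kb, by 5 regions in all. As for Cdh4, so few regions do not tell how much of the gene the files cover. Pcdh8 had none in a peak list. Pcdh7 and Pcdh1, the other delta-1 genes, were named by no list.

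The clustered protocadherins share 1 stretch of chromosome 18, named by the files from 30179910 to 30963105 (783 kb). It held 38, 31 and 29 peaks, or 48.5, 39.6 and 37 per Mb, against 42.3, 48 and 40.2 per Mb over chromosome 18. Only 13, 11 and 9 of these named a member. Gamma genes share their last exons and lie inside each other's introns, so 1 peak could name up to 14 of them. All gamma counts came from 4, 5 and 2 peaks, which formed 9 loci, and none of the 9 was found in all 3 libraries. Pcdhb7 was the member of this region with the largest fold in Astrocytes (40.1, 36.2 and 55.5, at its 3' end), and Pcdha4 had 50.1, 54.3 and 44.6 in the 2 kb after it. Of the 22 beta genes in RefSeq, 9 were members, and peaks named 7, 4 and 5 of the 22 (all genes 39.3%, 42.3% and 39.5%). Leaving out the clustered genes lowered the members with a peak to 30, 31 and 32.

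Member peaks lay almost wholly in introns. Introns of the member held 94.8% (91.6 to 97), 96.1% (93.5 to 97.8) and 95.5% (92.5 to 97.6) of them, against 88.2%, 87.7% and 88.1% of other peaks that name a gene. Promoter peaks were 11 of 305 in NSCs (3.61%, 1.81 to 6.36), 6 of 356 in Neurons (1.69%, 0.621 to 3.63) and 6 of 290 in Astrocytes (2.07%, 0.763 to 4.45). Other gene-naming peaks were in promoters in 7.86%, 8.33% and 7.82%, above each of those intervals. The measures are not quite alike. A member peak counts only by the class of the member, while another peak counts by the class of any gene it names. Exon peaks made up 3.93%, 3.93% and 2.07% of member peaks against 7.38%, 7.93% and 7.47% of the others. Over 50% of the member peaks lie in the 5 long genes named above, and the part of gene length in these shares was not tested. A CpG island was marked under 1 member peak, in an exon of Pcdh17 in Neurons.

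Promoter peaks named 12 of the 60 members in at least 1 library, and 3 of them, Pcdh15, Pcdh20 and Pcdhb12, in all 3. The share of all genes with a promoter peak was not computed, so these counts do not tell whether members are usual in this. The folds of these 3 lay between 8.91 and 17.6. Pcdh20, a compact protocadherin gene, had folds of 14, 13.1 and 10.2 at 71779306 to 71780036 of chromosome 15. Pcdhb12 had 9.21, 14.5 and 14 at 30507113 to 30507581 of chromosome 18. Pcdh15 had 13.8, 13.3 and 8.91 at 15335891 to 15336350 of chromosome 20, and a second promoter peak beside it in NSCs (17.6) and Astrocytes (10.2) only. Cdh19, a cadherin of nerve sheath cells, had 2 promoter peaks in NSCs (10 each) and 1 in Astrocytes (12.7), and Pcdhgc5 in the same pair (16.3 and 17.8). Those of Cdh2 (10), Cdh18 (8.78), Pcdhb19 (7.83) and Pcdhb22 (15) were in NSCs alone, and those of Cdh8 (7.62), Pcdhga8 (12.4) and Pcdhgb5 (13.3) in Neurons alone.

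The promoter windows of the 3 genes with a promoter peak in every library are shown because the files class these peaks as promoter peaks of those genes. They are RefSeq windows of assembly GRCr8, from 250 bases before to 50 after the gene's start, 5′ to 3′ on the gene's strand, at chr20:14824749-14825048 (minus strand) for Pcdh15, chr15:70840249-70840548 (minus) for Pcdh20 and chr18:29413506-29413805 (plus) for Pcdhb12. The files use another build, so whether a peak covers its window cannot be told, and the file's start of Pcdh15 may differ from that of RefSeq. Capitals mark, on either strand, a match to GAGGC, to its variant GAGGT, to the related motif CAGGC or to that motif's variant CAGGT, a motif family reported for 6mA in human DNA. None of these motifs contains another.
Pcdh15: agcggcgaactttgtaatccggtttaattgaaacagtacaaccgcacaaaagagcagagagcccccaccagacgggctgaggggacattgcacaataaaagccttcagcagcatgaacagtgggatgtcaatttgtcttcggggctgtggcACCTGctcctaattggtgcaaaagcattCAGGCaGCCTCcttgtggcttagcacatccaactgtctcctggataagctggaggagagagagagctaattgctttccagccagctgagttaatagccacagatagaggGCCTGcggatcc
Pcdh20: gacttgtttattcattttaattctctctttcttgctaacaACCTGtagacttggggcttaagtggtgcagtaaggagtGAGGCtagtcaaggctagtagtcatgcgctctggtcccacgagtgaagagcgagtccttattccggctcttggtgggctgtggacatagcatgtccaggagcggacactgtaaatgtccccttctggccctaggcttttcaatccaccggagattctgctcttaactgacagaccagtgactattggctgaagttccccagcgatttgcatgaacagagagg
Pcdhb12: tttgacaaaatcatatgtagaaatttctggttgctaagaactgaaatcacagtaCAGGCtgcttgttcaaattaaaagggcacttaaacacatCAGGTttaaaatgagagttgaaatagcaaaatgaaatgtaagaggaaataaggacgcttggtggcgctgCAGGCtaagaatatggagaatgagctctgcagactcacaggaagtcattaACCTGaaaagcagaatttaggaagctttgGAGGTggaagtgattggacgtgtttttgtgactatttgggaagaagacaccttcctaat
The windows hold 4, 2 and 5 such matches and are 48.7%, 50.7% and 61.3% A or T. At least 1 match is in 94% of all 27457 RefSeq windows and in 89.2% of the 65 windows of genes of the pattern. GAGGC was in 60.7% of all windows and 52.3% of those of the pattern. GAGGT was in 48.5% and 32.3%, CAGGC in 60.9% and 53.8%, and CAGGT in 48.9% and 40%. GATC, an adenine methylation motif of bacteria also searched, was in 46.7% and 47.7%, and in 1 of the 3 windows printed. A match is only a run of letters in a window.

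Member peaks recurred between libraries as often as others. In NSCs, 46.2% (40.5 to 52) overlapped by at least 1 bp a peak of both other libraries, in Neurons 39.6% (34.5 to 44.9) and in Astrocytes 48.6% (42.7 to 54.5), against 46.1%, 40% and 47.3% of other gene-naming peaks. Merged over the lists, members had 542 loci, of which 140 (25.8%, 22.2 to 29.7) were in all 3 libraries. The share for other gene loci was 25.2%. Loci in 1 list only were weak. Their median fold was 10, 10.9 and 10.2, against 16.5, 18.4 and 17.5 for member loci in all 3.

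Single members differed around that average. Cdh13 had 66 loci, and 33 of them (50%, 37.4 to 62.6) were found in all 3 libraries. Among 316 other genes with at least 30 loci the median was 23.3%, the quartiles were 17.5% and 31.7%, and 6 genes (1.9%) reached 50%. Cdh10 lay at the other end, with 3 of 32 loci (9.38%, 1.98 to 25), and 13 of the 316 genes (4.11%) had 10% or less. Its median peak folds were 11.9, 11.3 and 11.4, against 12.7, 13 and 14.6 for Cdh13. Cdh9 had 1 of 14, Cdh7 1 of 12, Cdh8 0 of 10 and Pcdh11x 4 of 29 loci in all 3. Pcdh9 (19 of 70, 27.1%) and Pcdh15 (15 of 49, 30.6%) were near the average. The members were chosen by symbol, but Cdh13 and Cdh10 were singled out here after their values were seen.

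**Figure D4:**
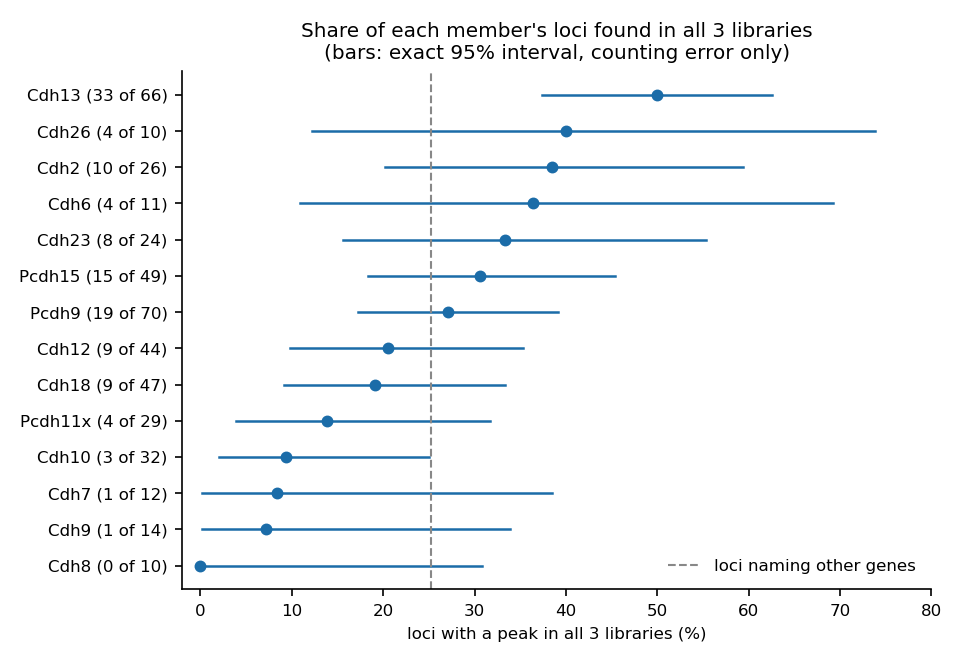
Share of each member's merged loci with a peak in all 3 libraries (horizontal axis, percent), for members with at least 10 loci, with exact 95% intervals for counting error. The dashed line marks 25.2%, the share over loci naming other genes, and the interval of Cdh13 lies above it.

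The authors also compared the immunoprecipitated libraries with each other. Each pair gave 1 list of regions higher in the first library and 1 of regions higher in the second. The 3 comparisons share libraries, so their lists are not independent. Between Neurons and NSCs, Neurons were higher at 82 member regions and NSCs at 59 (58.2% in Neurons, 49.6 to 66.4, against 54.8% for other genes). The regions higher in Neurons named 40 of the 80 RefSeq members (50%; all genes 23.2%), and 26 of the 28 of at least 100 kb (92.9%, 76.5 to 99.1; all such genes 71.3%). Those higher in NSCs named 34 (42.5%; all genes 20.5%) and 20 of the long ones (71.4%, 51.3 to 86.8; all such genes 65.1%). The Neuron share of long members lay above 71.3% with its whole interval, but gamma genes that share regions are counted in it. Without the clustered genes it was 18 of 20 (90%, 68.3 to 98.8), an interval that holds 71.3%, and the NSC share was 13 of 20 (65%). Regions in both directions named 29 of the 80 RefSeq members (36.2%; all genes 10.6%), and 19 of the 28 long ones (67.9%, 47.6 to 84.1; all such genes 55.3%). Gamma genes are counted in these too, and 1 region higher in NSCs named 12 of them.

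Cdh9 alone had at least 3 regions that were all higher in Neurons than in NSCs, with 4 regions on chromosome 2 and folds of 14.1 (67006089 to 67006384), 11.9 (67050923 to 67051363), 14.7 (67073350 to 67073812) and 12.7 (67076176 to 67076682). Against Astrocytes, Neurons were higher at 3 Cdh9 regions, with folds of 18.7, 9.16 and 14.3, and lower at none. Both lists name the places at 67006089 and 67073350, and both rest on the same Neuron library. Cdh9 was singled out by these counts after they were seen. The share of other genes with all their regions in the same direction was not computed. The counts therefore do not tell whether Cdh9 is unusual in this. Cdh2 was higher in Neurons at 5 regions and in NSCs at 2. One of its tall loci was among the former (8322196 to 8322954, fold 6.52), as was 8226208 to 8227252 (4.37), where Astrocytes also exceeded NSCs (4.02). Pcdh15 went the other way, with 8 regions higher in NSCs and 2 higher in Neurons, and 7 higher in NSCs than in Astrocytes against 2. One of the 8 was its promoter peak at 15335312 to 15335817, with a fold of 14.4.

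The largest folds of Neurons over NSCs in members were in Cdhr3 (21, in the 2 kb after the gene), Cdh10 (18.7), Cdh18 (16), Cdh20 (14.8) and Pcdh11x (14.8). Those of NSCs over Neurons were in Cdh6 (22), in a region naming both Pcdhb21 and Pcdhb22 (14.8), in Pcdh15 (14.4) and in Pcdh9 (14.1). Promoter regions higher in NSCs also named Cdh24 (9.66, in a CpG island) and Cdh12 (8.54). Higher in Neurons were promoter regions of Pcdhgb5 (13.6) and Pcdhgc3 (9.87).

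**Figure D5:**
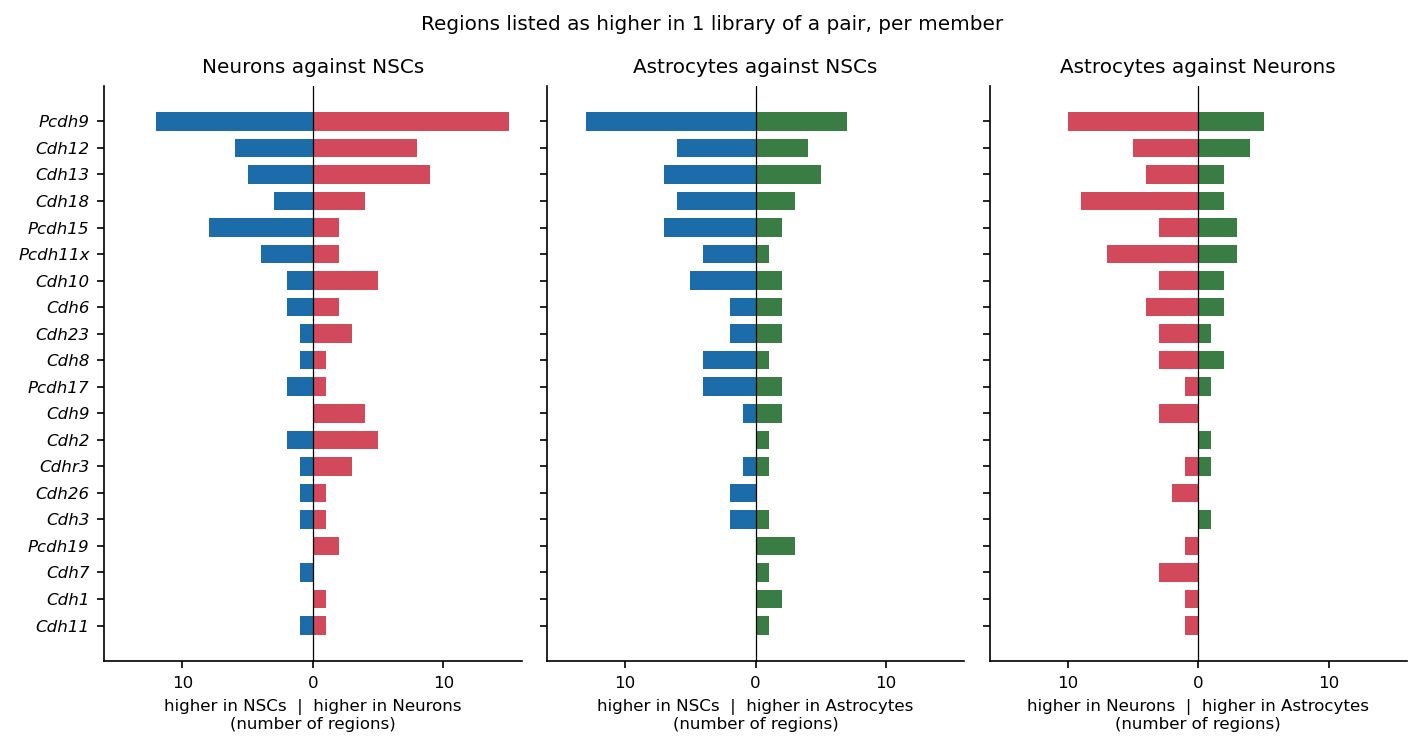
Number of regions listed as higher in either library of a pair, for the 20 non-clustered members with the most such regions. Bars to the right are higher in the first library named in the panel title and bars to the left in the second. Cdh9 has bars to the Neuron side only in both panels with Neurons, and Pcdh15 has 8 regions to the NSC side against 2 in the first panel.

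Between Astrocytes and NSCs, 47 member regions were higher in Astrocytes and 74 in NSCs (38.8% in Astrocytes, 30.1 to 48.1, against 42% for other genes). Regions higher in Astrocytes named 34 of the 80 RefSeq members (42.5%; all genes 18.6%) and 23 of the 28 long ones (82.1%, 63.1 to 93.9; all such genes 61.2%), or 16 of 20 without the clustered genes (80%, 56.3 to 94.3). Regions higher in NSCs named 33 (41.2%; all genes 22.3%) and 19 of the long ones (67.9%, 47.6 to 84.1; all such genes 69.4%), or 12 of 20 without the clustered genes (60%). Both directions named 26 of the 80 (32.5%; all genes 9.58%) and 18 of the 28 (64.3%, 44.1 to 81.4; all such genes 50.8%). These counts again hold 12 gamma genes that 1 region higher in Astrocytes named. Pcdh19 had 3 regions higher in Astrocytes and none higher in NSCs, with folds of 11.4, 8.78 and 6.71 on chromosome X. Neurons were also higher than NSCs at 2 of these Pcdh19 places (7.95 and 7.82). Pcdh19, like Cdh9, was singled out by its counts, without a share of other genes to set beside them. The largest folds of Astrocytes over NSCs were in Pcdh10 (21.3, chromosome 2, 137005612 to 137006137), Pcdh15 (15.9), Cdh1 (15.9), Cdh10 (14.6) and a gamma region naming Pcdhga1 and others (14.3). For NSCs over Astrocytes they were in Pcdh17 (18.6), Cdh12 (17.3), Cdh26 (15.9), Pcdh11x (14.6) and Pcdh15 (14.2). Pcdh9 had 13 regions higher in NSCs and 7 higher in Astrocytes, and Cdh24 (8.3) and Cdh8 (13.3) had promoter regions higher in NSCs.

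Between Astrocytes and Neurons, 35 member regions were higher in Astrocytes and 75 in Neurons (31.8% in Astrocytes, 23.3 to 41.4, against 29.7% for other genes). Regions higher in Astrocytes named 19 of the 80 RefSeq members (23.8%; all genes 15.3%) and 14 of the 28 long ones (50%; all such genes 52.9%). Without the clustered genes that share was 13 of 20 (65%, 40.8 to 84.6), on the other side of 52.9% but with an interval that holds it. Both directions named 15 of the 80 (18.8%; all genes 8.83%) and 12 of the 28 (42.9%, 24.5 to 62.8; all such genes 47%). Regions higher in Neurons named 36 (45%; all genes 25.6%) and 24 of the long ones (85.7%, 67.3 to 96; all such genes 73.9%), or 16 of 20 without the clustered genes (80%). Cdh7 had 3 regions higher in Neurons (folds of 9.1, 10.4 and 10.4) and none higher in Astrocytes. It too was singled out by its counts, and the share of other genes with such counts was not computed. The largest folds of Neurons over Astrocytes were in Pcdh9 (21.3), Cdh9 (18.7), Cdh18 (15.6), Cdh20 (14.8) and Cdh17 (14.6), and Cdh18 had 9 regions higher in Neurons against 2. Those of Astrocytes over Neurons were in Cdh2 (16.9), Pcdh15 (15.6), Pcdh11x (15.5), Cdh3 (15.1) and Pcdh9 (13.4). The Pcdh10 region at 137005612 was again higher in Astrocytes (12). Promoter regions of Cdh8 (10.4) and Pcdhgb5 (14.3) were higher in Neurons.

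A peak present in 1 list and absent from another was listed as a difference in fewer than 50% of cases. Of 170 member loci with a Neuron peak and no NSC peak, 52 (30.6%, 23.8 to 38.1) overlapped a region listed as higher in Neurons, against 34.4% for other genes. In the other direction it was 38 of 119 (31.9%, 23.7 to 41.1, others 36.5%). The lowest share was for Astrocyte peaks without a Neuron peak (23 of 101, 22.8%), and the highest for NSC peaks without an Astrocyte peak (51 of 131, 38.9%). Of 165 loci with a Neuron peak and no Astrocyte peak, 49 (29.7%, 22.8 to 37.3) were listed, under the 39.3% of other genes.

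Among the partners of cadherins, too, a few long genes held most peaks. Of 14 catenin and junction plaque genes, peaks named 11, 13 and 10 (all genes 39.3%, 42.3% and 39.5%), with 189, 239 and 179 peaks. Of the 14, 6 are at least 100 kb long, and 5, 6 and 5 of those were named, beside the 87%, 87.5% and 86.9% of all such genes. Most were in 3 very long genes: Ctnna3 (alpha-T-catenin) had 95, 118 and 87 peaks and largest folds of 81.1, 70.4 and 107, Ctnna2 (the neural alpha-catenin) 42, 52 and 41, and Ctnnd2 (delta-catenin) 36, 43 and 33. Ctnnb1 (beta-catenin, 27.1 kb) had no peak in any of the 3 lists, and a single region higher in Neurons than in Astrocytes (10.4). Of these 14 genes, 10 had a region higher in Neurons than in NSCs (all genes 23.2%) and 6 a region higher in NSCs (all genes 20.5%). Among the 6 long ones it was 6 and 4, beside 71.3% and 65.1% of all such genes.

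Among 8 desmosomal cadherins, 7 of them in RefSeq, peaks named 4, 6 and 7 (all genes 39.3%, 42.3% and 39.5%). Largest folds were 44.3, 48.5 and 43.1 in Dsg2, 41.4, 45.9 and 39.6 in Dsg3 and 18.8, 19.2 and 44.5 in Dsg4. In comparisons with NSCs, 2 desmosomal genes had a region higher in Neurons (all genes 23.2%) and 3 in Astrocytes (18.6%), while 2 had a region higher in NSCs than in Neurons (20.5%) and 0 a region higher in NSCs than in Astrocytes (22.3%). Counts this small, over 7 RefSeq genes, were not tested against those shares. Of 13 other genes with cadherin repeats, peaks named 10, 11 and 12 (all genes 39.3%, 42.3% and 39.5%). The 6 of at least 100 kb were named in each library, beside 87%, 87.5% and 86.9% of all such genes. The long Fat3 (28, 43 and 21 peaks) and Clstn2 (33, 39 and 31) held most of the peaks. Of the 13, 10 genes had a region higher in Neurons than in NSCs (all genes 23.2%) and 6 one higher in NSCs (20.5%). Their 6 long genes gave 6 and 5 of those, beside 71.3% and 65.1%.

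The authors' deposited table of gene ontology terms lists homophilic cell adhesion, with 42 members in the gene list of the term for each cell type. It gives 78, 83 and 80 genes with a peak of 121 in the term, against 49.1, 53.7 and 48.8 expected, and adjusted p-values of 0.252, 0.368 and 0.101 in the authors' deposited table. The table's other terms on cadherins had larger adjusted p-values: cadherin binding 0.879, 0.948 and 0.856, calcium-dependent cell-cell adhesion the same values, and the catenin complex 1, 0.948 and 1, with 4, 6 and 4 of its 9 genes named. The authors' method of adjustment is not stated.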

How the data were processed

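Peak lists of 3 immunoprecipitated libraries against input and 6 lists comparing them were read as deposited, skipping 6 lines without coordinates. Reads were aligned with BWA, per the submitters' processing notes. Peak names in the files carry a MACS prefix; no source used here states the caller's settings, the genome build or the gene models. The authors' fold is a ratio of 1 library to its input or to another library. Per the file headers, the deposited score is the −log10 of a p-value times 10. Deposited read counts and mapping percent per library gave the depth. The authors' deposited ontology tables give other values per term: gene counts, expected numbers, a ratio and adjusted p-values. Annotation classes are the files' own.

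Computed here, with Python 3.11.15 and scipy 1.17.1: members per list, merged loci (at least 1 bp shared), exact 95% Clopper-Pearson intervals, and peaks per 100 kb. RefSeq (GRCr8) gave symbols, lengths and promoter windows, and matched 58 of 60 members. Overlap counting was tested on simulated regions. Members, lists and tests were chosen with earlier results of these data known. Named genes are the 10 members of largest fold per peak list, 5 per comparison list, all with promoter regions, the 10 densest of at least 20 kb with at least 3 peaks, those with at least 3 regions in 1 direction only, and a list of 10 cadherins. Alternatives were a stricter score, a stricter fold, gene bodies only, no clustered genes, counts per pair of peak and member, a 50% overlap and other gene lengths, of which the stretch the files name was chosen after seeing the data.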

Additional observations from a re-analysis of the deposited data

How the results depend on the processing

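Of 81 alternatives for 21 counts, shares and densities of the members, 55 stayed within 1.5 times the count or within the interval of the share, and 26 moved. Without the clustered genes, 30, 31 and 32 members had a peak in NSCs, Neurons and Astrocytes. In the comparisons 25 were then named higher in Neurons and 20 in NSCs, 22 higher in Astrocytes and 20 in NSCs, and 22 higher in Neurons than in Astrocytes. With the authors' score at 87.4 or more, member peaks numbered 156, 181 and 160, and with the fold at 12.1 or more they numbered 156, 191 and 149. The same score raised the share found in both other libraries to 55.1% in NSCs and 47% in Neurons. It lowered the median over members of at least 20 kb from 3.2, 3.77 and 2.56 peaks per 100 kb to 1.07, 0.877 and 1.18. The length over which the files name a member, added after seeing the data, raised it to 4.86, 6.02 and 4.71. Set against other genes, the members' density changed direction with the choice of length, gene set and size limit. In the comparison lists, a fold of at least 9.53 left 17 members higher in NSCs than in Neurons. A score of at least 62.4 left 16 higher in NSCs than in Astrocytes, 9 higher in Astrocytes than in Neurons and 24 higher in Neurons. The shares of all genes under these cuts were not computed. The lower counts of members are therefore not a result about the members. No paired analysis was possible because each cell type has 1 immunoprecipitated library, which also leaves every difference between cell types without a replicate check.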

Other observations

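Pcdh7, a 430 kb delta-1 protocadherin of brain, is named by no list. In RefSeq it lies between Arap2 and Stim2, and in the files the peaks naming those neighbours leave a stretch of chromosome 14 from 48883952 to 59208933 (10.3 Mb). That stretch held 215 NSC, 223 Neuron and 168 Astrocyte peaks, of which 5, 4 and 3 carry any gene name. The largest gap without a peak was 283, 404 and 266 kb, each shorter than Pcdh7 in RefSeq. If the gene lies in that stretch at its RefSeq length, it overlaps at least 1 peak of each library, so its absence from the lists cannot be read as an absence of peaks. The stretch was chosen after its values were seen.

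Promoter peaks or comparison regions lay at the outer edge of the stretch over which the files name Pcdh15, Cdh18, Cdh12 and Cdh8. A promoter lies at the start of a gene, so this place follows from how the stretch is defined. Pcdh15 ends with its promoter peak at 15336350 of chromosome 20, and Cdh18 begins with one at 74187019 of chromosome 2. Cdh12 begins with a promoter region of a comparison list at 72004652 of chromosome 2, and Cdh8 with another at 6298132 of chromosome 19. These genes are named over 24.1%, 49.9%, 42% and 30.1% of their RefSeq length. Cdh2, named over 99%, also ends with a promoter peak, at 8366119 of chromosome 18. What such an edge means for the short stretches was not tested.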
